A study of Sporobolus alterniflorus and Setaria viridis with 12 samples.

Results

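Mature leaves of Spartina alterniflora, grown with added NaCl or without it, were compared by RNA sequencing. The comparison covers 3 salt libraries and 3 control libraries, called A, B and C in each group after the letters of their columns, out of 12 libraries that also include Setaria viridis leaves. Genes entered the comparison if their mean was at least 1 FPKM (a gene's fragments relative to its length and to all fragments of the library) over these 6 libraries, which held for 11330 of the 15218 gene IDs in the table. The gene nearest to that limit inside it had a mean of 1 FPKM and the one nearest outside it 0.998 FPKM. Plants of S. alterniflora were raised from seed collected in the wild and moved to hydroponic culture at 2 months of age, under 16 h of light and 8 h of dark at 25 to 27 °C. The salt group received NaCl at a dose on which the sources conflict, since the treatment protocol gives 50 mM for this species and the column names carry the number 250. The control group carries no dose in the labels, and how long the treatment lasted is not stated in the labels. The protocol gives the salt group of S. viridis, the other grass of the series, 250 mM, and its columns carry 50. Species are named as the columns give them; were the species prefixes of the columns swapped, the values below would belong to S. viridis, which the sources cannot settle.

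S. alterniflora, listed in the labels as Sporobolus alterniflorus, is a C4 cordgrass of tidal salt marshes. Salt acts on a leaf both by withholding water and through sodium ions that build up in its cells. Plants of saline soils are known to store sodium in the vacuole, to make compatible solutes and, in cordgrasses, to secrete salt through glands on the leaf surface. All genes carried Setaria gene IDs, and the files pair 0 of them with a gene name, so single genes are given by ID, no pathway is named, and the labelled tissue could not be checked against leaf markers.

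The 3 salt libraries and the 3 control libraries did not overlap on the leading principal component of the tested genes, with 44.3% of their variance. Scores were -5.06, -83.7 and -21.4 for salt libraries A, B and C, against 36.9, 29.1 and 44.2 for control libraries A, B and C, so salt library B lay farthest out. Spearman correlations over all 15218 genes were 0.854 to 0.928 within salt, 0.894 to 0.936 within controls and 0.799 to 0.909 between the groups. The median gene had an SD of 0.41 (log2) between salt libraries and 0.35 between control libraries. The 100 most abundant genes took 66.3%, 59.6% and 63.2% of total FPKM in salt libraries A, B and C, against 70.5%, 62.2% and 76.7% in control libraries A, B and C. That difference had p = 0.3 in a two-sided exact permutation test, where 3 libraries against 3 cannot go below 0.1. The read totals are not part of FPKM values, and the depth of each library is therefore unknown. In bulk leaf RNA, fewer cells of a type and less RNA per cell cannot be told apart.

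Few genes passed the test, and most of those that did were higher under salt. Of the 11330 genes, 184 were called (1.62%; limma on log2(FPKM + 1), Benjamini-Hochberg adjusted p under 0.05), with 162 higher (1.43%) and 22 lower (0.194%). Among the 162 genes that rose, the median log2 fold change was 2.45 (quartiles 1.97 and 2.99, range 1.47 to 8.13), and 120 rose at least 4-fold. Among the 22 that fell it was -2.27 (quartiles -2.98 and -1.77, range -5.25 to -1.30), and 16 fell at least 4-fold. Over all tested genes the median was 0.06 and the quartiles were -0.30 and 0.47. Upper quartile scaling or centring each library on its median turned that median to -0.05, a shift of over 0.1, and left 114 higher and 24 lower calls with the scaling and 116 higher and 24 lower with the centring. The labels do not tie the 3 libraries of a group to separate plants, and the p-values therefore reflect only how these libraries differ, which could be technical variation.

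**Figure D1:**
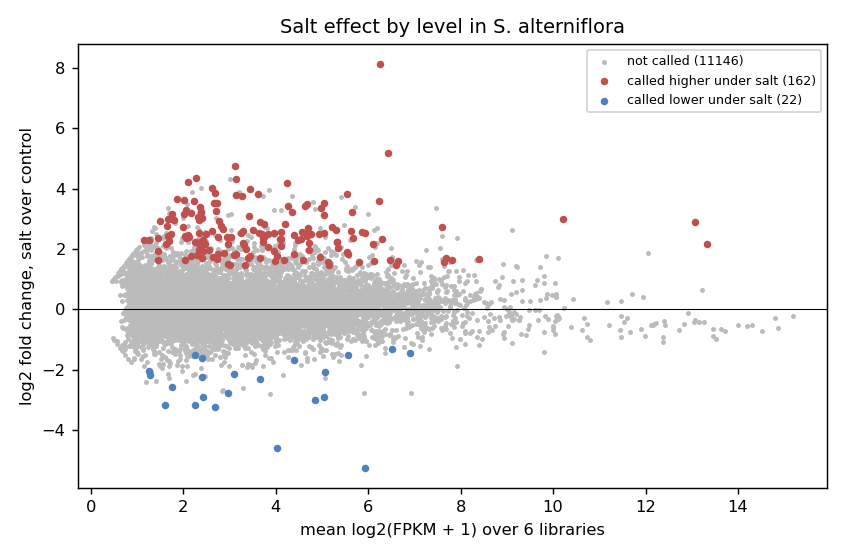
Log2 fold change of salt over control against the mean log2(FPKM + 1) of the 6 S. alterniflora libraries, 1 point per tested gene. The 162 genes called higher lie at all levels. Of the 22 called lower, 2 average 100 FPKM or more and 0 average 1000 FPKM or more. The points at the far right, the most abundant genes, lie mostly just below 0, with 2 called genes above 2.

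The gene with the strongest evidence of a rise was Sevir.7G183100. It had 41.3, 50.8 and 42.8 FPKM in salt libraries A, B and C, against 3.3, 1.36 and 2.39 FPKM in control libraries A, B and C. The lowest salt library thus lay far above the highest control, and salt library B was the highest. Its mean was 45 ± 5.08 FPKM under salt and 2.35 ± 0.971 FPKM in controls (SD, n = 3 each), a log2 fold change of 3.82 ± 0.29 (SE; limma adjusted p = 0.00943).

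Sevir.1G295800 was near 0 in controls. It had 12.7, 19.2 and 15.3 FPKM in salt libraries A, B and C, against 0.19, 0.52 and 0.39 FPKM in control libraries A, B and C. No control reached 1 FPKM and all salt libraries were above 10 FPKM. The log2 fold change was 3.60 ± 0.28 (SE; limma adjusted p = 0.00943), which understates the ratio of so low a gene because 1 FPKM was added to each value; the ratio of the mean FPKM values was 42.9.

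Sevir.5G359200 led the genes that fell. It had 0.14, 0.79 and 1.01 FPKM in salt libraries A, B and C, against 11.5, 14.6 and 13.9 FPKM in control libraries A, B and C. The salt libraries stayed at or near 1 FPKM or below, and the controls differed little from each other. The log2 fold change was -3.16 ± 0.31 (SE; limma adjusted p = 0.00943).

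Sevir.4G169200 was next to absent under salt. It had 0.04 FPKM in salt library A and was listed at 0 in salt libraries B and C, against 5.75, 9.74 and 9.69 FPKM in control libraries A, B and C. Control A was the lowest control. The log2 fold change was -3.18 ± 0.31 (SE; limma adjusted p = 0.00943), a size set by the 1 FPKM added to each value: with a pseudocount of 0.1 it was -6.21 (limma adjusted p = 0.0154). These 4 genes were taken for the largest moderated test statistic in each direction among called genes whose groups did not overlap, so their separation is part of the choice. Each was also called with any 1 of 5 libraries left out, and none of them without control library A, where all had a limma adjusted p of 0.0699, with adjusted p between 0.0173 and 0.0699 over the 6 libraries left out in turn.

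**Figure D2:**
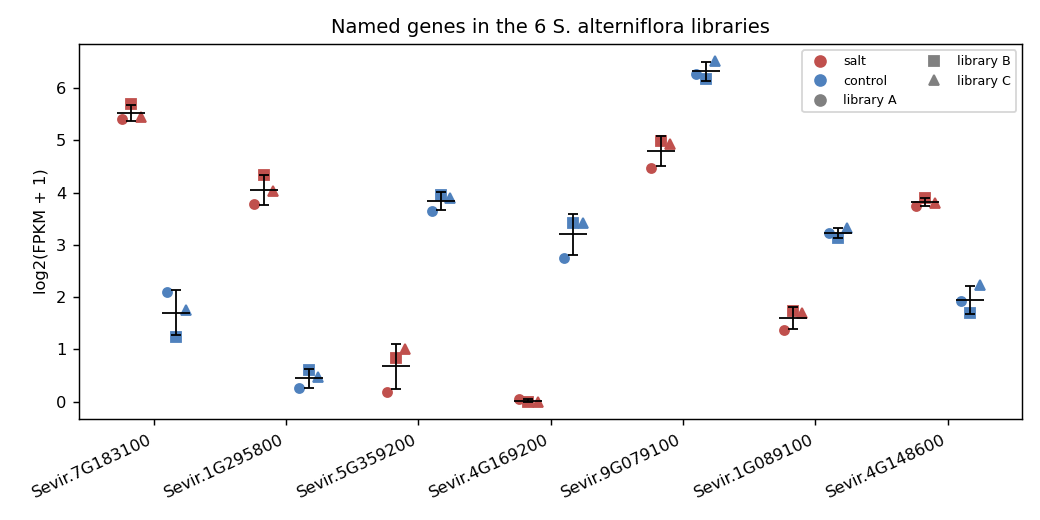
Log2(FPKM + 1) of the 7 genes named here in the S. alterniflora libraries, with salt to the left of control for each gene, points for libraries A, B and C, and bars for the mean and SD (n = 3). In each gene the 3 salt libraries lie apart from the 3 controls, with Sevir.4G169200 at or near 0 under salt.

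The 162 genes that rose were mostly of low to moderate level without salt. Their median level was 28.1 FPKM under salt and 3.85 FPKM in controls, and 38 of them averaged under 1 FPKM in controls. The filter was on the mean of all 6 libraries, so these 38 entered the test only through their level under salt. At least 100 FPKM was reached by 27 of the 162 under salt and by 7 in controls. Of all 11330 tested genes, 627 averaged under 1 FPKM in controls. At least 100 FPKM was reached by 634 of all tested genes under salt and by 530 in controls. The salt libraries did not move equally: salt B was the highest of its group for 78 of these genes, salt C for 53 and salt A for 30, and salt A was the lowest for 77. The median excess over the control mean was nevertheless close, at 2.28 (log2) in salt A, 2.37 in salt B and 2.41 in salt C. Since the genes were called for this difference, these values describe the set and test nothing.

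**Figure D3:**
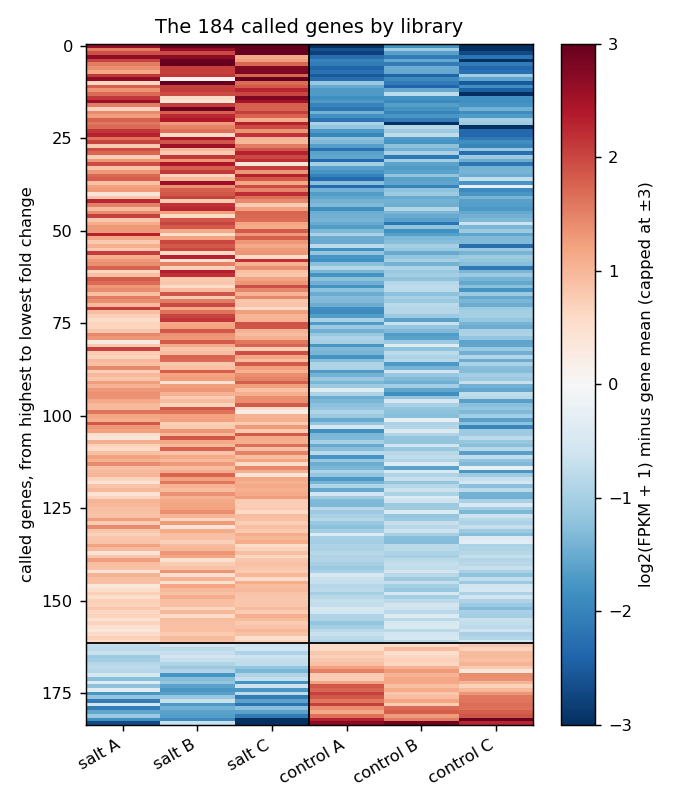
Log2(FPKM + 1) of each called gene minus its mean over the 6 libraries, with genes in rows from the highest to the lowest fold change and salt libraries to the left of controls. The 162 genes above the horizontal line are high in salt and the 22 below it are high in controls, with the deepest colours in salt libraries B and C at the top.

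The 22 genes that fell had a median level of 2.37 FPKM under salt and 19.9 FPKM in controls. Of these, 5 averaged under 1 FPKM under salt, as did 334 of all 11330 tested genes, and such genes entered the test only through their controls. Among the 22, 3 were listed at 0 in at least 1 salt library. None of the 22 averaged 100 FPKM under salt, and 3 did in controls. Together they made up 0.0321%, 0.0375% and 0.0315% of total FPKM in salt libraries A, B and C, against 0.182%, 0.194% and 0.142% in control libraries A, B and C.

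Most of the RNA in the rising set came from 2 very abundant genes. The 162 genes took 6.4%, 9.82% and 9.38% of total FPKM in salt libraries A, B and C, against 1.28%, 1.6% and 1.09% in control libraries A, B and C. Without those 2 genes the other 160 took 1.41%, 2.53% and 2.21% under salt, against 0.259%, 0.348% and 0.237% in controls. Of the pair, 1 gene had 15241, 31524 and 27432 FPKM in salt libraries A, B and C, against 3273, 2802 and 3365 FPKM in control libraries A, B and C, a log2 fold change of 2.91 ± 0.32 (SE; limma adjusted p = 0.0103). The other had 21732, 20224 and 23575 FPKM under salt, against 4724, 5552 and 4465 FPKM in controls, a log2 fold change of 2.16 ± 0.23 (limma adjusted p = 0.0102). Both ranked among the 10 most abundant genes of these libraries, and both were picked out after their values were seen.

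Most other abundant genes stood somewhat lower under salt, without passing the test. The 73 genes that averaged 1000 FPKM or more were set apart after the data were seen. Of these, 54 had a lower mean log2 level under salt and 19 a higher one. Over all 11330 tested genes, 5106 were lower and 6224 higher. Limma called 3 of the 73 higher and 0 lower, against 162 higher (1.43%) and 22 lower (0.194%) of all tested genes. The median log2 fold change of the 73 was -0.42, against 0.06 for all tested genes. The median of these 73 genes, relative to the control mean, was -0.32, -0.38 and -0.48 (log2) in salt libraries A, B and C, against 0.06, -0.06 and 0.10 in control libraries A, B and C. The groups did not overlap in that median, but they did for most single genes. Of the 73, 18 had all salt libraries below all controls and 9 had them above, against 7.01% and 14.7% of all tested genes. The median stayed below 0 under both scalings (-0.57 with upper quartile scaling and -0.54 with median centring) and with each library left out (-0.51 to -0.32). At an unadjusted p under 0.05, limma passed 1670 genes of all levels (14.7%). FPKM values of a library share 1 total, so a lower share for abundant genes and a higher share for the rest cannot be told apart here.

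Many genes separated the groups without being called. The 3 salt libraries lay above all 3 controls for 1664 genes (14.7% of those tested) and below them for 794 (7.01%), and upper quartile scaling turned this split to 1292 above and 1349 below. Without any difference between the groups, a share of about 0.1 of genes would still separate in 1 direction or the other with 3 libraries against 3. The separated genes are therefore not a count of genes that respond to salt. Of the separated genes, 1502 higher and 772 lower ones were not called, with a median size of 0.90 and 0.73 (log2). Among them 102 rose and 15 fell at least 4-fold in mean without passing the test, and their median residual SD was 0.90 and 0.92 (log2). The called genes of at least 4-fold had 0.52 among the 120 higher and 0.51 among the 16 lower. The test divides a fold change by its spread, so a smaller SD among called genes follows from the selection. Over all 15218 gene IDs, 13 were listed at 0 in all 3 controls and at 1 FPKM or more in all 3 salt libraries. When present, they had means of 1.15 to 30.1 FPKM with a median of 3.23. Limma called 2 of them, and the lowest was below the filter on the mean of the 6 libraries, so it was not tested. The opposite pattern was seen for 2 genes, at means of 1.44 and 1.65 FPKM in controls. Both were below that filter and were not tested.

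The count of calls rested on single libraries. Limma called 116, 154 and 35 genes without salt library A, B and C, and 0, 67 and 49 without control library A, B and C, against 184 with all 6. Without control A the smallest adjusted p was 0.0699 and 1099 genes had an unadjusted p under 0.05. All 184 genes kept their sign in each of those 6 fits. That was fixed in advance, since none of the 184 had overlapping groups, so it is no evidence of stability. With any 1 of the 5 libraries other than control A left out, 24 genes were called each time, 20 of them higher and 4 lower. Their log2 fold changes were 2.29 to 4.75 in size. Their median residual SD was 0.35, against 0.47 for the other 160, and a small SD is part of what makes a call. Library weights estimated by limma from the residual spread were 4.26 for salt C and 3.1 for control A, 0.791 for salt A, 0.943 for control B, 0.408 for control C and 0.249 for salt B. The libraries whose loss removed most calls, control A and salt C, were those with the highest weights. With these weights in the fit 1924 genes were called, 1404 higher and 520 lower, the 184 among them. That fit leans mostly on salt C and control A. Weights and calls come from the same residual spread, so neither this match nor the 1924 calls are independent evidence.

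**Figure D4:**
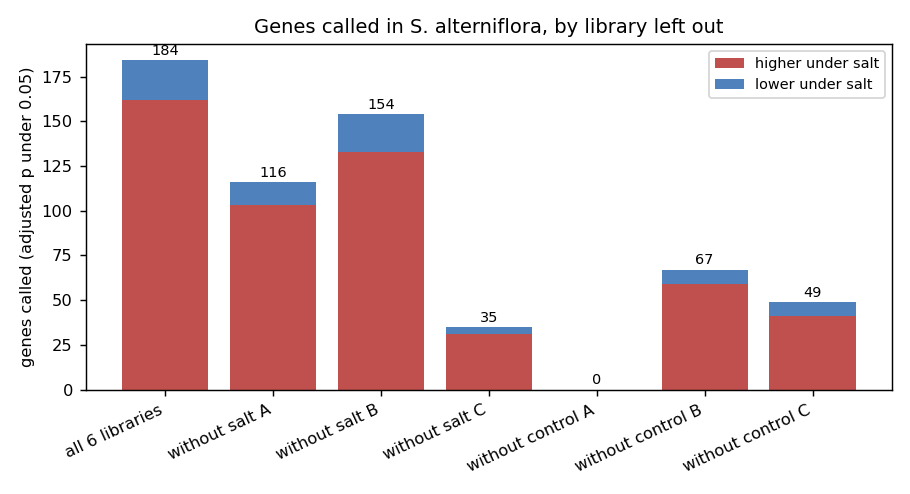
Number of genes called higher (lower part of each bar) and lower (upper part) under salt in S. alterniflora with all 6 libraries and with each library left out. The total is 184 with all libraries, 154 without salt B and 0 without control A.

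The salt effect was then set against that of S. viridis, as S. alterniflora minus S. viridis over all 12 libraries. The difference was called for 3029 of 12529 genes (24.2%; limma, adjusted p under 0.05), with 1683 higher in S. alterniflora (13.4%) and 1346 lower (10.7%). Of the 162 genes that rose in S. alterniflora, 95 were among the 3029, with 73 higher in S. alterniflora and 22 lower, and of the 22 that fell, 13 were, with 1 higher and 12 lower. The same S. alterniflora libraries had called these genes, so such shares are no independent evidence. Among the 9384 genes tested in both species, S. viridis had 2336 called higher (24.9%) and 2556 called lower (27.2%). Of the 162 genes, 85 were called higher in S. viridis too, and the difference was called for 28 of these, of which 22 had the larger rise in S. viridis and 6 in S. alterniflora. Another 6 of the 162 were called lower in S. viridis, and the difference was called for all 6. A group of 44 of the 162 were tested but not called in S. viridis, with a median log2 fold change of 2.23 in S. alterniflora and 0.30 in S. viridis, and the difference was called for 35 of them. The last 27 averaged under 1 FPKM in S. viridis, 6 of them listed at 0 in all of its libraries. The difference was called for 26 of these 27, which are part of the 73 and were not tested in S. viridis alone. These 27 were set apart by a mean under 1 FPKM that includes the S. viridis salt libraries. That choice left out genes with a large rise there. The median difference of the 27, 2.66 (log2), thus largely repeated their median log2 fold change of 2.76 in S. alterniflora. These 26 calls are therefore no independent evidence that the species respond differently. Of the 22 genes that fell, 7 averaged under 1 FPKM in S. viridis and were not tested there alone. The difference was called for all 7, though a fall as large as in S. alterniflora could hardly be seen at that level. Of the others, 7 were called lower in S. viridis too, 2 were called higher and 6 were not called. The difference was called for 1, 2 and 3 of these. The dose differs between the species by either source, so species and dose cannot be told apart.

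**Figure D5:**
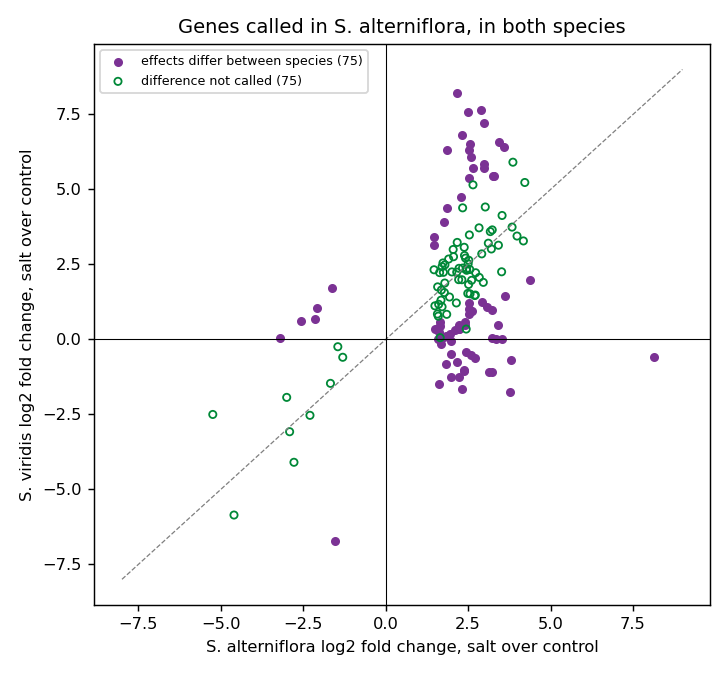
Log2 fold change of salt over control in S. viridis against that in S. alterniflora for the genes called in S. alterniflora that were also tested in S. viridis, with filled points where the difference between the species was called. The dashed line marks equal effects; filled points above it on the right are genes with the larger rise in S. viridis, and filled points near the horizontal line have a rise in S. alterniflora and an effect near 0 in S. viridis.

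Among genes called in both tests, Sevir.9G079100 had the largest statistic for an effect higher in S. alterniflora. It had 21.1, 30.7 and 29.5 FPKM in S. alterniflora salt libraries A, B and C, against 75.9, 71.4 and 90.7 FPKM in its controls. In S. viridis it had 0.09, 0.04 and 1.1 FPKM under salt, against 179, 167 and 93.9 FPKM in controls. It fell in both, with a log2 fold change of -1.53 ± 0.26 in S. alterniflora (SE; limma adjusted p = 0.0371) and -6.73 ± 0.37 in S. viridis (SE; limma adjusted p = 4.09e-05), a difference of 5.21 ± 0.47 (limma adjusted p = 3.65e-05).

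Sevir.7G183100, described above, was the second such gene. In S. viridis it had 0.19, 0.45 and 0.74 FPKM under salt and was listed at 0 in all 3 controls, below the filter for that species. The difference was 3.29 ± 0.37 (SE; limma adjusted p = 0.000143), and 1.92 with a pseudocount of 0.1, where it no longer passed (limma adjusted p = 0.0584).

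Sevir.1G089100 moved in opposite directions. It had 1.58, 2.32 and 2.26 FPKM in S. alterniflora salt libraries A, B and C, against 8.33, 7.8 and 8.96 FPKM in its controls. In S. viridis it had 4.36, 4.19 and 3.36 FPKM under salt, against 0.58, 0.51 and 0.43 FPKM in controls. The log2 fold change was -1.62 ± 0.25 in S. alterniflora (SE; limma adjusted p = 0.0305) and 1.72 ± 0.19 in S. viridis (SE; limma adjusted p = 0.000599), and the difference was -3.34 ± 0.30 (limma adjusted p = 3.35e-05).

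Sevir.4G148600 rose in both species to different levels. It had 12.4, 13.9 and 12.9 FPKM in S. alterniflora salt libraries A, B and C, against 2.78, 2.22 and 3.7 FPKM in its controls. In S. viridis it had 157, 67 and 94.8 FPKM under salt, against 0.61, 0.16 and 0.12 FPKM in controls. The log2 fold change was 1.87 ± 0.26 in S. alterniflora (SE; limma adjusted p = 0.0211) and 6.30 ± 0.33 in S. viridis (SE; limma adjusted p = 4.02e-05), a difference of -4.43 ± 0.43 (limma adjusted p = 5.89e-05). Its S. alterniflora call, like those of Sevir.9G079100 and Sevir.1G089100, was lost without most single libraries: it held in 2 of 6 such fits, and the other 2 genes held in 1 of 6 each.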

How the data were processed

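Reads were paired-end, with a length of 150 bases, per the labels' protocols. The values used are FPKM, rounded to 2 decimals, in a single table that the authors deposited for 12 libraries. The submitters' processing notes name RSEM and edgeR but give neither a role nor a version. Aligner, reference and filters, and how S. alterniflora reads came to Setaria IDs, are not stated, so divergent or near-identical genes are uncertain. Columns carry letters, not the labels' replicate numbers, and were assigned to groups.

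FPKM is not a count, so limma 3.58.1 (R 4.3.3) was fitted to log2(FPKM + 1) with a mean-variance trend, as a two-sided test over all genes averaging 1 FPKM or more, and p-values were adjusted by Benjamini-Hochberg to a threshold of 0.05. The salt comparison used the 6 S. alterniflora libraries and the difference between species all 12. Named genes are, for each test, the 2 higher and 2 lower with the largest moderated statistic, for the salt test among called genes whose groups do not overlap and for the difference among genes called in both tests. Members, lists and tests were chosen with earlier results of these data known; lists by gene function could not be used, as 0 IDs have a name. Alternatives were another pseudocount, filter, scaling, variance model, library weights, 1 fit over 12 libraries, a block by column letter and each library left out. The fit without salt library B and control library C, and the alternatives for abundant genes, were added after seeing the data. Tables and figures were drawn up in Python 3.11.15 using pandas 2.3.3 and matplotlib 3.10.9.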

Additional observations from a re-analysis of the deposited data

Results flagged for a closer look

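A test of the interaction of species and salt passed for 3029 genes and for each gene named above. Sevir.9G079100, Sevir.7G183100, Sevir.1G089100 and Sevir.4G148600 were chosen among genes that passed this test, so their passing is part of the choice. The other named genes were chosen for their change in S. alterniflora, which is a part of the difference tested. The S. alterniflora minus S. viridis difference (log2) was 3.29 for Sevir.7G183100, 2.16 for Sevir.1G295800, -2.45 for Sevir.5G359200, -4.34 for Sevir.4G169200, 5.21 for Sevir.9G079100, -3.34 for Sevir.1G089100 and -4.43 for Sevir.4G148600. Of these, Sevir.4G169200 had 2.78, 0.4 and 1.32 FPKM in S. viridis salt libraries A, B and C, against 0, 0 and 0.1 FPKM in its controls, and Sevir.5G359200 was listed at 0 in all S. viridis salt libraries, against 0.34, 0.63 and 1.01 FPKM in its controls, too low for a fall of the S. alterniflora size to be seen there. Sevir.1G295800 had 3.89, 1.43 and 2.57 FPKM in S. viridis salt libraries A, B and C, against 0.19, 0.27 and 0.4 FPKM in its controls. With 3 libraries a group, no formal test for a library far from its group was made. Salt B and control C, with the lowest library weights, were left out of 1 fit after the data were seen.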

How the results depend on the processing

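The count of salt calls in S. alterniflora, 184, moved by over 1.5 times with library weights (1924, with 1404 higher and 520 lower), in 1 fit over all 12 libraries (526, with 435 and 91) and with a replicate block by column letter (105, with 94 higher and 11 lower). Same-letter libraries did not deviate together (correlations of deviations 0.0308, -0.0226 and 0.0185), so the letters are not taken to pair the libraries. With each library left out the counts were 0 to 154, with 0 to 133 higher and 0 to 21 lower, and without both salt B and control C 151. The other alternatives gave 134 to 182. The difference between species was called for 4987 genes with library weights, 3007 of them higher, against 3029 and 1683; with each of the 12 libraries left out it was called for 1966 to 3917, with 1044 to 2428 higher and 922 to 1489 lower; and the replicate block by column letter gave 2587. Genes whose groups do not overlap numbered 1292 higher and 1349 lower with upper quartile scaling, and 1101 and 523 with a filter at a mean of 5 FPKM. The majority of non-overlapping genes, higher before, was thus lower with that scaling, and the median of all tested genes turned to -0.05, against 0.06. No fold change of a named gene turned its direction. With 1 S. alterniflora library left out the salt effect could not turn, since the groups of each named gene do not overlap. For the named genes, 172 of 197 gene and alternative combinations kept the call and 25 lost it. The causes were not tested. Depth is unknown, so what it limits cannot be given.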

Other observations

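The position of the called genes was read from their IDs, whose digit before the letter G is taken here as the chromosome of the Setaria gene model. Called genes made up 2.49% of the 1730 tested genes numbered 5 and 2.35% of the 1403 numbered 3, against 0.972% of the 1441 numbered 1 and 0.647% of the 464 numbered 8. Of the 162 that rose, 39 were numbered 5 (24.1%, against 15.3% of all tested genes) and 33 were numbered 9 (20.4% against 18.9%), and of the 22 that fell, 6 were numbered 4 (27.3% against 8.23%). Genes next to each other in the table were seldom called together: 6 called genes, in 3 pairs that rose together, had a called gene as their nearest tested neighbour, which is 3.26% of the called genes, while 3.22% of all tested genes had such a neighbour. No test was made of these counts.

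For genes at 0.15 to 0.8 FPKM, the ratios of their values between 2 libraries piled up at 1 ratio in each of the 15 pairs of S. alterniflora libraries. The most filled interval of ratios held 3.33 to 11.8 times as many genes as the median interval, and lay at ratios of 0.92 to 1.21. Whether these ratios reflect steps of single reads was not tested, so they give no measure of depth.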
